A study of Homo sapiens with 6 samples.

Results

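The genes described here are 8 transcription factors of the adrenergic core regulatory circuit of neuroblastoma: PHOX2A, HAND1, HAND2, GATA2, GATA3, ISL1, TBX2 and TFAP2B. They were found by symbol in the deposited count table, where all 8 of 8 were present among 25370 rows. RNA had been sequenced from human neuroblastoma lines in 6 libraries. BE2C cells with forced overexpression of LMO1 gave 2 libraries, BE2C cells carrying the vector control gave 2, unmodified BE2C cells (called parental here) gave 1 and Kelly cells gave 1. BE2C and Kelly are established neuroblastoma lines with MYCN amplification, and all comparisons within BE2C concern a single line. LMO1 encodes a LIM-only co-regulator without DNA binding of its own, and the series asks how it acts with MYCN. Whether the modified cells were pools or clones is not given in the sources used here.

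Adrenergic neuroblastoma cells resemble sympathetic neuroblasts and depend on a small set of transcription factors that bind their own and each other's enhancers. PHOX2A is a homeodomain factor of noradrenergic neurons that activates the gene for dopamine beta-hydroxylase. HAND1 and HAND2 are basic helix-loop-helix factors, GATA2 and GATA3 are zinc-finger factors, ISL1 is a LIM-homeodomain factor, TBX2 is a T-box factor known mainly as a repressor, and TFAP2B is an AP-2 factor of the sympathetic lineage. LMO proteins bind LDB1 and can bridge GATA and helix-loop-helix factors in one complex, classes that are both represented in this circuit.

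Total counts ran from 18737591 to 59512958 per library, and a count of 0 allowed at most 0.16 CPM (counts scaled to a fixed library total) in the smallest library. LMO1 was at 6.55 and 5.85 CPM in the LMO1 libraries, 1.05 and 0.926 CPM with vector, 1.93 CPM in parental cells and 94.1 CPM in Kelly. All 14 neuroblast marker genes on a fixed list (among them DBH, CHGA and STMN2) were detected at a summed 6039 to 9005 CPM per library. CHGA alone was at 1610 to 4228 CPM. TH was at 1.53 to 6.21 CPM in BE2C and 405 CPM in Kelly, and STMN4 at 1.47 to 5.97 and 13.6 CPM. The haematopoietic list summed to 7.23 to 9.66 CPM, most of it CD68, with PTPRC at or below 0.282 CPM. The Schwann and melanocytic list summed to 15.8 to 34.0 CPM. MITF, a melanocyte factor, was at 9.77 to 15.9 CPM, PMEL at 16.8 CPM in Kelly and at or below 0.21 CPM in BE2C, and FOXD3 at or below 0.185 CPM. The fibroblast and endothelial list summed to 103 to 192 CPM. The receptor PDGFRB was at 42.8 to 98.8 CPM, the proteoglycan DCN at 18.8 to 102 CPM in BE2C and 0.201 CPM in Kelly, the collagen COL1A1 at 57.9 CPM in Kelly and at or below 7.60 CPM in BE2C, and the endothelial marker PECAM1 at or below 0.0403 CPM. Parental and Kelly libraries stood apart from the modified ones in content. Replication-dependent histone genes made up 1.23% of counts in each LMO1 library, 1.01% and 1.02% with vector, but only 0.0423% in parental cells and 0.0138% in Kelly, although the labels name the same library kit.

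With LMO1, 2 of the 8 factors were higher than with vector and 4 were lower (edgeR quasi-likelihood test, adjusted p under 0.05, n = 2 libraries per group). TFAP2B and ISL1 rose, TBX2, GATA3, HAND1 and HAND2 fell, and PHOX2A and GATA2 did not pass the test. Of 15480 genes tested, 31.0% were called, 15.9% higher and 15.1% lower. This near-even split of 2463 and 2334 genes became 2735 and 1853 with total-count scaling and 2675 and 1933 with upper-quartile scaling, while the members' calls were the same. Among genes whose mean level reached 50 CPM, as that of every member did (67.6 to 321.7 CPM), 46.3% were called. The changes were small, with a median absolute log2 fold change of 0.23 over the 8 members against 0.17 over all genes tested and 0.11 over those at 50 CPM or more, a limit chosen after the levels were seen. None of the 8 reached a 2-fold change in either direction. Nothing in the labels states whether both libraries of a group are separate cultures or repeats of one. The p-values rest on the spread between such libraries, estimated largely from all genes together, and that spread may be technical. Markers of other cell types moved in the same comparison. DCN (log2 fold change 0.84) and LUM (1.06) rose, COL3A1 (-1.80) and CDH5 (-2.35) fell, and so did MITF (-0.53, edgeR adjusted p = 0.00113), and their part in the members' changes was not tested. The change of CDH5 rested on few reads, 4 and 7 with LMO1 and 24 and 40 with vector. In bulk RNA, fewer cells of a type and less RNA per cell cannot be told apart.

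**Figure D1:**
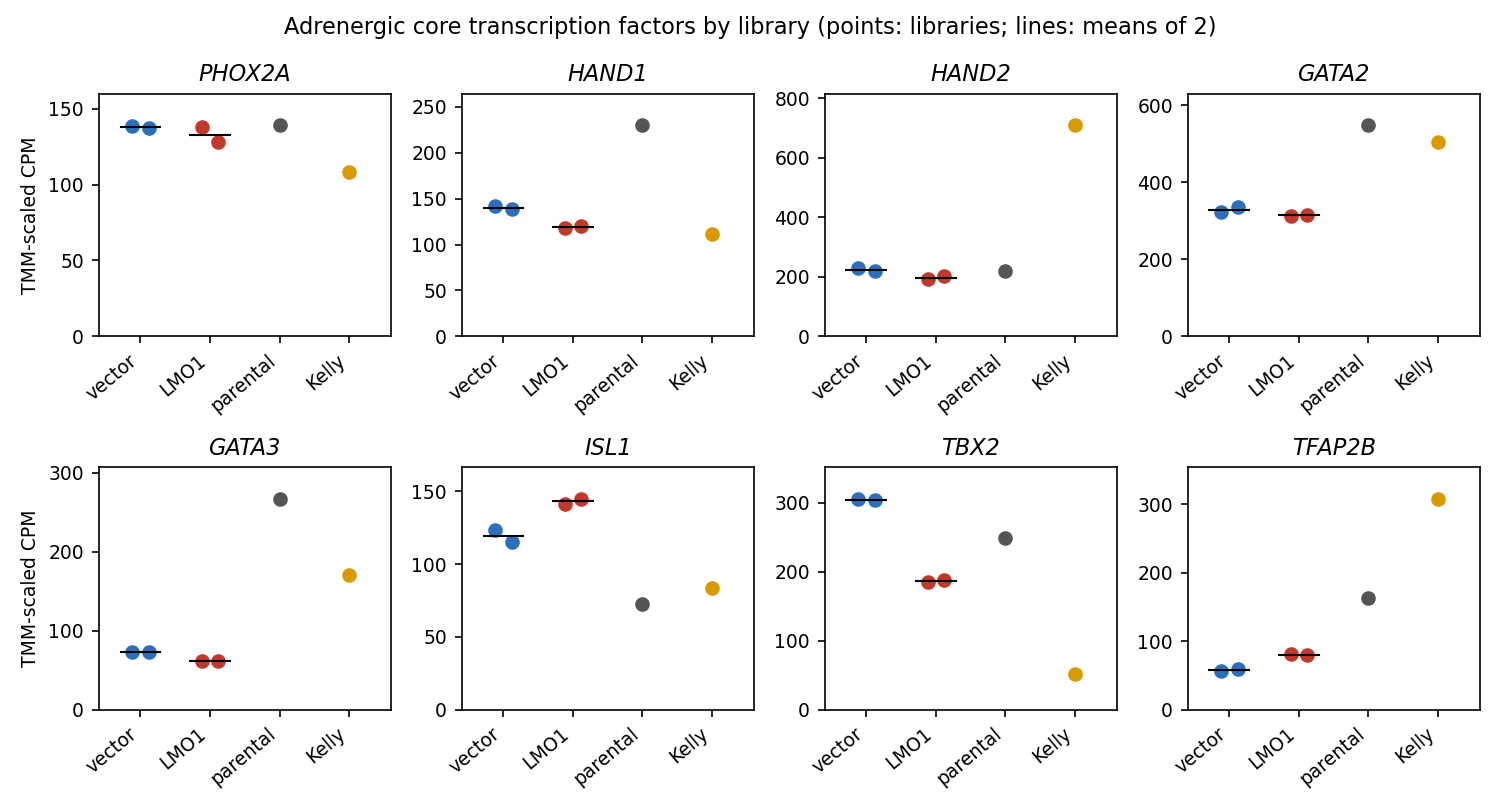
TMM-scaled CPM of each of the 8 factors (y axis, starting at 0) in vector, LMO1, parental and Kelly libraries (x axis), with 1 point per library and a line at the mean of 2. TBX2 shows the widest gap between LMO1 (186 and 188 CPM) and vector (306 and 303 CPM), and GATA3 the parental library at 267 CPM above 4 modified libraries at 61.8 to 73.2 CPM.

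The T-box factor TBX2 had the largest change of the 8. It was at 186 and 188 CPM in the LMO1 libraries and at 306 and 303 CPM with vector. Both LMO1 libraries lay far below both vector libraries. The means were 187 ± 1.64 and 304 ± 1.85 CPM (SD, n = 2 each), and TBX2 fell by 0.70 on the log2 scale (SE 0.0343, edgeR adjusted p = 5.94e-22), or 1.62-fold. By size of change TBX2 exceeded 89.1% of the genes tested.

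The AP-2 factor TFAP2B moved the other way. It was at 81.6 and 79.8 CPM with LMO1 and at 57.2 and 59.4 CPM with vector, without overlap. The means were 80.7 ± 1.23 and 58.3 ± 1.54 CPM (n = 2 each), a log2 fold change of 0.48 (SE 0.0574, edgeR adjusted p = 3.51e-09). ISL1 was at 141 and 145 CPM with LMO1 and at 124 and 115 CPM with vector. Here too the higher group lay above the lower one in every library, with means of 143 ± 2.76 and 119 ± 6.19 CPM, a rise of 0.27 on the log2 scale (SE 0.0442, edgeR adjusted p = 3.04e-06).

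The helix-loop-helix pair fell by similar amounts. HAND1 was at 118 and 120.5 CPM with LMO1 and at 142 and 139 CPM with vector, and HAND2 at 193 and 202 CPM against 228 and 219 CPM. In neither gene did the groups overlap. HAND1 fell by 0.22 (SE 0.0429, edgeR adjusted p = 4.62e-05) and HAND2 by 0.17 (SE 0.0368, edgeR adjusted p = 0.000192) on the log2 scale. The GATA factors were less alike. GATA3 was at 61.8 and 62.1 CPM with LMO1 and at 73.2 CPM in both vector libraries, and fell by 0.23 (SE 0.0577, edgeR adjusted p = 0.00135). GATA2 was at 313 and 315 CPM against 323 and 336 CPM. Its groups did not overlap, but the log2 fold change of -0.06 (SE 0.0317) did not pass the test (edgeR adjusted p = 0.136). Whether the changes of GATA2 and GATA3 differ from each other was not tested.

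PHOX2A was at 138 and 128 CPM with LMO1 and at 139 and 137 CPM with vector. It was the only member whose groups overlapped, with a log2 fold change of -0.05 (SE 0.0434, edgeR adjusted p = 0.425). Groups did not overlap for 7 of the 8 members, against 63.7% of all genes tested. MYCN, the amplified oncogene that works with this circuit in these lines, had a log2 fold change of -0.05 (SE 0.0234, edgeR adjusted p = 0.122, and 0.00019 to 0.577 over the alternatives).

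Sequences just before the transcription start are shown for HAND2 and ISL1, which moved in opposite directions with LMO1, and for HAND1, which fell with HAND2. Each is the 250 bases upstream of a RefSeq start on GRCh38.p14, 5′ to 3′ on the gene's strand. Capitals mark matches on either strand to the E-box CANNTG, which helix-loop-helix factors can bind, and to GATA words, which are GATAA or GATAG preceded by A or T. The windows are chr4:173530230-173530479 on the minus strand for HAND2, chr5:51383198-51383447 on the plus strand for ISL1 and chr5:154478228-154478477 on the minus strand for HAND1, and these coordinates belong to the sequence table and not to the hg19 build of the counts.
HAND2: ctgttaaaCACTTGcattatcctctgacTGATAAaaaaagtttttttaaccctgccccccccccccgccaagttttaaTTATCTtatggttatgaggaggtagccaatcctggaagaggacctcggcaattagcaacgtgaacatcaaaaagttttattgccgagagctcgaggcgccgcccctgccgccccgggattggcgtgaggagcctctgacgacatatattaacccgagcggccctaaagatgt
ISL1: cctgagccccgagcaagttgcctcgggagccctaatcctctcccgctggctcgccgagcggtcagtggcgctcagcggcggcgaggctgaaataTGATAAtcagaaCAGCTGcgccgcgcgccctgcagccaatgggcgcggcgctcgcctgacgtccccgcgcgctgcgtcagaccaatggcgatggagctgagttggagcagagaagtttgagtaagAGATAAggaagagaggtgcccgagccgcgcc
HAND1: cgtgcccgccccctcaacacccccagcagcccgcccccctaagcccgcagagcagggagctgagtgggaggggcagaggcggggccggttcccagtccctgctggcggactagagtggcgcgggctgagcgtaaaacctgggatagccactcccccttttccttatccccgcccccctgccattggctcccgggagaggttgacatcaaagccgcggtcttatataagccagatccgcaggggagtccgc

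HAND2 and ISL1 each held 2 GATA words and 1 E-box in this window, and HAND1 held neither. Of the 7 members with a window in the RefSeq table (13 windows, since GATA2 and GATA3 have several starts), HAND2 and ISL1 were the only 2 with a GATA word, in 2 of the 13 windows, while 22.3% of 35116 windows of the same length held one. An E-box was present in 5 of the 13 member windows, and in the first window of 2 of the 7 members, against 61.8% of all windows. The homeodomain word TAATTA was in 1 of the 13 windows (HAND2, against 4.35% of all windows), the AP-2 palindrome GCCNNNGGC in 6 (of GATA2, HAND1 and GATA3, against 19.8%) and the T-box word AGGTGT in 2 (of PHOX2A and GATA3, against 9.57%). All words were searched on both strands, and E-box and T-box matches can share letters, as do the TAATTA match and one GATA word of HAND2. Several windows of one gene are not independent, and the AP-2 word came from 3 of the 7 members. G and C made up 40.8% to 74.8% of the bases of the member windows. The shares over all windows were not matched for this. A match is a description of letters and not a binding site.

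**Figure D2:**
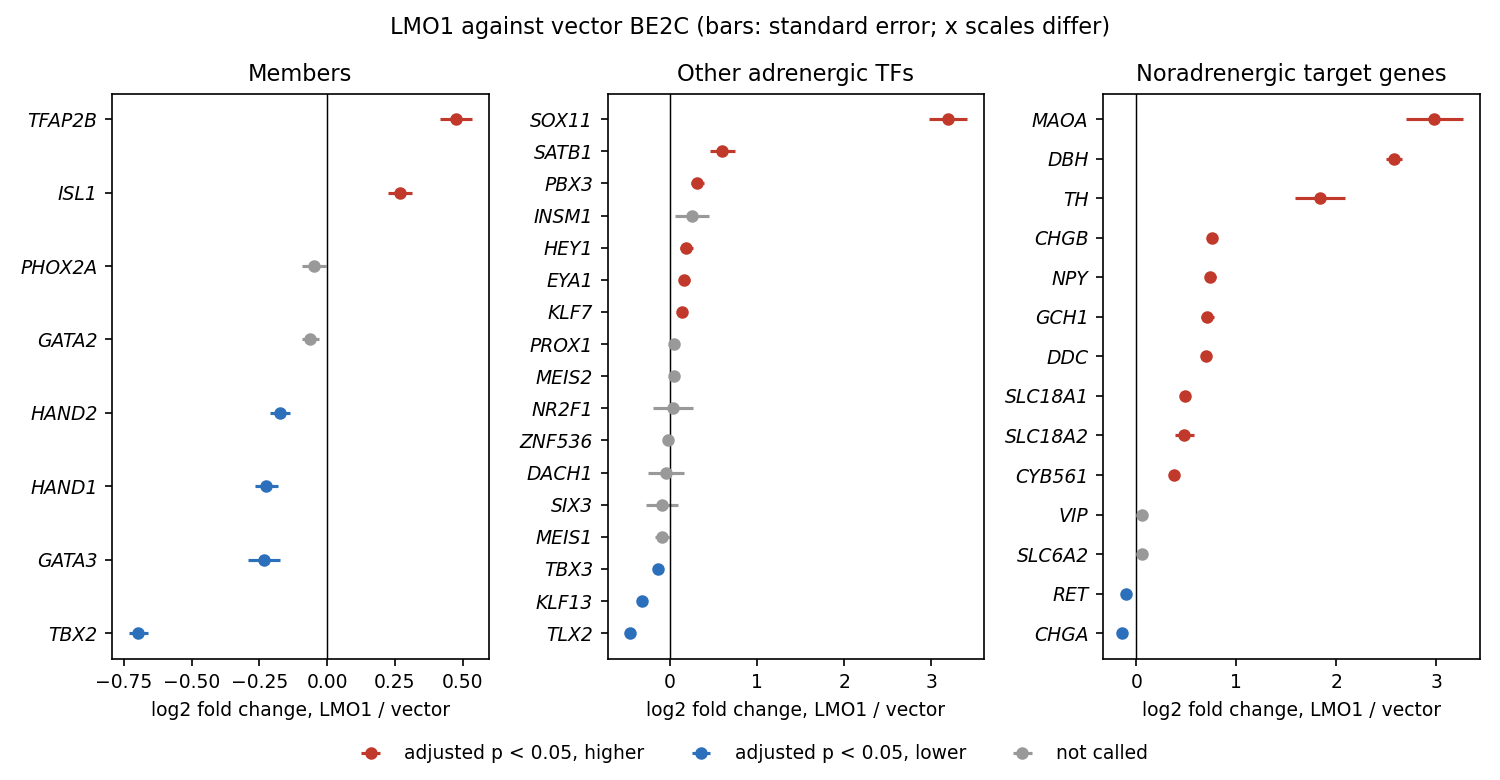
Log2 fold change of LMO1 against vector (x axis, scales differ between panels, bars are standard errors) for the 8 members, 17 of 18 other adrenergic transcription factors and 14 tested noradrenergic target genes (y axis). Red and blue points passed an adjusted p of 0.05. In the member panel 2 points are red and 4 blue, while 10 of 14 target genes are red.

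Other transcription factors of the adrenergic state also moved both ways. Of 18 on a fixed list, all 18 were tested, and 6 were higher, 4 lower and 8 not called. The shares of all genes tested were 15.9% higher and 15.1% lower. The median log2 fold change was 0.04 against 0.00083 over all genes tested. SOX11, an SRY-box factor of immature neurons, was at 12.7 and 10.4 CPM with LMO1 and at 1.51 and 1.05 CPM with vector, a log2 fold change of 3.19 (SE 0.219, edgeR adjusted p = 1.37e-16). KLF13, a zinc-finger factor, fell by 0.32 (SE 0.0337) and TLX2, a homeodomain factor of neural crest derivatives, by 0.46 (SE 0.0607). The count of higher genes was not stable. It was 3 with DESeq2, 3 without a low-count filter, 3 without LMO1 replicate 2 and 2 without vector replicate 2.

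Of 38 paralogues of the 8 factors, 18 had too few reads to be tested. Of the other 20, 2 were higher, 3 lower and 15 not called, against 15.9% higher and 15.1% lower of all genes tested. Their median log2 fold change was -0.02. TWIST2, a helix-loop-helix factor, had no read in any library. TFAP2C, the AP-2 relative of TFAP2B, was at 3.67 and 3.35 CPM with LMO1 and at 0.0916 and 0.242 CPM with vector. This was a log2 fold change of 4.32 (SE 0.462, edgeR adjusted p = 1.34e-10). Even so, the LMO1 libraries held far fewer TFAP2C than TFAP2B reads, 70 and 76 against 1558 and 1814. TBX20, a T-box relative of TBX2, was at 34.0 and 33.4 CPM with LMO1 and at 46.3 and 48.6 CPM with vector and fell by 0.49 (SE 0.0738, edgeR adjusted p = 6.71e-07). GATA4 was at 35.4 and 28.5 CPM with LMO1 and at 39.3 and 42.7 CPM with vector (log2 fold change -0.36, SE 0.084, edgeR adjusted p = 0.000686). Without LMO1 replicate 2 its log2 fold change was -0.21 and the call was lost (edgeR adjusted p = 0.0753). LMX1B, a LIM-homeodomain relative of ISL1, was at 2.20 and 1.36 CPM against 0.504 and 0.402 CPM (log2 fold change 1.96, SE 0.463, edgeR adjusted p = 0.000799), a call lost without LMO1 replicate 1 (edgeR adjusted p = 0.0637).

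Cofactors through which GATA, LIM and helix-loop-helix proteins act passed the low-count filter for all 17 listed. Of these, 3 were higher, 7 lower and 7 not called (median log2 fold change -0.04), against 15.9% higher and 15.1% lower of all genes tested. LDB1, the adaptor that LMO proteins bind, was at 135 CPM in both LMO1 libraries and at 138 and 140 CPM with vector (log2 fold change -0.04, SE 0.0417, edgeR adjusted p = 0.53). It was singled out after its values were seen. SSBP2, which stabilises LDB1, rose by 0.39 (SE 0.0528, edgeR adjusted p = 4.94e-08), and the E-protein TCF4, a dimer partner of HAND factors, rose by 0.21 (SE 0.0318, edgeR adjusted p = 1.01e-06). LMO4, a LIM-only paralogue of LMO1, fell by 0.26 (SE 0.047, edgeR adjusted p = 2e-05), and the acetyltransferase EP300 fell by 0.31 (SE 0.0609, edgeR adjusted p = 5.5e-05).

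Genes of noradrenergic differentiation, several of them known targets of this circuit, were mostly higher with LMO1. Of 15 listed, 14 were tested, 10 were higher, 2 lower and 2 not called, with a median log2 fold change of 0.59. Over all genes tested, 15.9% were higher and 15.1% lower, and the list was chosen with earlier results of these data known. Without vector replicate 2 the count of lower genes was 1. DBH, whose promoter is a textbook target of PHOX2 factors, rose from 14.2 ± 1.13 to 84.4 ± 7.69 CPM (n = 2 each), a log2 fold change of 2.57 (SE 0.0803, edgeR adjusted p = 1.01e-29), while PHOX2A itself stayed at 128 to 139 CPM in these 4 libraries. CHGB, a granule protein, rose by 0.75 (SE 0.0227), DDC, the aromatic amino acid decarboxylase, by 0.70 (SE 0.0335) and NPY, a sympathetic neuropeptide, by 0.74 (SE 0.0551). The 2 lower genes were CHGA, a granin, and RET, a receptor tyrosine kinase, with log2 fold changes of -0.14 and -0.11. They were named after their values were seen. Transcription factors of the mesenchymal state, the alternative to the adrenergic one, summed to 201 and 203 CPM with LMO1 and to 190 and 191 CPM with vector. Of 20 on that list 13 were tested, 2 were higher (NR3C1, the glucocorticoid receptor, and MAFF, a small MAF factor) and 0 lower. With no adjustment the same edgeR fit gave 3 higher genes and 1 lower gene with p under 0.05. The lower one was IRF1, an interferon regulatory factor named after its values were seen. DESeq2 called 0 lower. The call of MAFF was lost with DESeq2 (adjusted p = 0.077) and on leaving out the first LMO1 library (edgeR adjusted p = 0.185) or either vector library (0.0511 and 0.105). PRRX1, a homeobox gene that can drive the mesenchymal state, had at most 2 reads in each modified library. It had 2 reads in the parental library and 84 in Kelly (1.41 CPM).

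Levels were compared between the 8 genes after division by the length of the longest coding transcript in GENCODE 29, as CPM per kilobase. In the vector libraries GATA2 was highest at 97.8 ± 2.70, followed by TBX2 at 91.1 ± 0.554 (SD, n = 2). PHOX2A (81.3 ± 0.651), HAND1 (80.7 ± 1.34) and HAND2 (80.5 ± 2.26) came next and overlapped in turn. ISL1 (48.5 ± 2.52), GATA3 (23.4 ± 0.00199) and TFAP2B (10.1 ± 0.267) were lower, each apart from the next. In the LMO1 libraries GATA2 was still first at 93.3 ± 0.368 CPM per kilobase, and TBX2 was at 56.0 ± 0.490, just under ISL1 at 58.1 ± 1.12, with no overlap between these 2 genes. With the median in place of the longest transcript length, the order of the middle genes changed. HAND2 (109) and PHOX2A (105) then stood above TBX2 (91.1) in the vector libraries, while GATA2 stayed first (175) and GATA3 and TFAP2B last (27.6 and 17.7 CPM per kilobase). In the parental library ISL1 (42.2) then lay below TFAP2B (49.7).

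**Figure D3:**
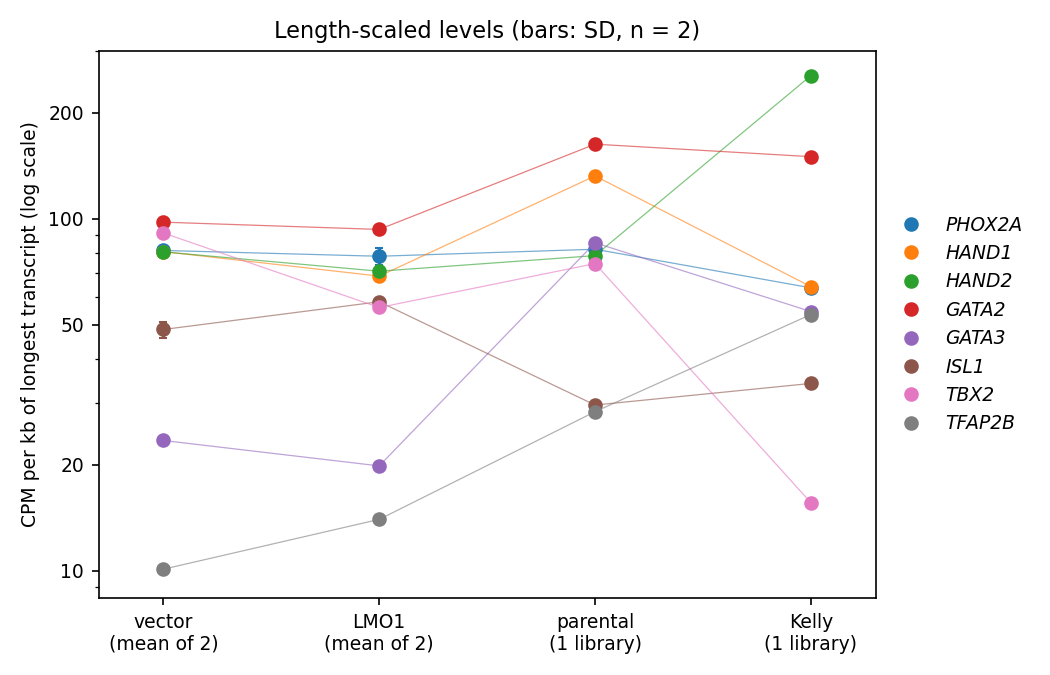
CPM per kilobase of longest transcript (y axis, log scale) of the 8 genes in vector and LMO1 cells (mean of 2 libraries, bars are SD) and in the single parental and Kelly libraries (x axis). HAND2 reaches 255 in Kelly, where TBX2 is lowest at 15.6, and TFAP2B is lowest in vector and LMO1 cells. In the parental library TFAP2B (28.3) and ISL1 (29.6) overlap within counting error.

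Kelly cells, which express LMO1 from their own gene, were set against parental BE2C cells. There was 1 library on each side, so no replicate check and no test, and intervals are exact 95% intervals for counting error only. HAND2 was 3.25-fold higher in Kelly (710 against 218 CPM, interval 3.18 to 3.32). TBX2 was 4.79-fold lower (52.0 against 249 CPM, interval 4.60 to 4.98), and HAND1 was 2.06-fold lower (111 against 230.1 CPM, interval 2.002 to 2.13). By the 2-fold limit, applied to log2 ratios of CPM with 1 added, 1 of 8 members was higher and 2 were lower, where 15.3% of 12387 genes were higher and 13.4% lower. HAND1 lay just inside the limit at a log2 ratio of -1.04 and TFAP2B just outside it at 0.91 (308 against 163 CPM).

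The other members differed less between the lines. GATA3 measured 170.2 CPM in Kelly against 267 CPM in parental cells, PHOX2A 108 and 139 CPM, GATA2 506 and 549 CPM and ISL1 83.7 and 72.7 CPM. Read against all 5 BE2C libraries, Kelly was above every one for HAND2 and TFAP2B (2 of 8, against 39.7% of genes) and below every one for PHOX2A, HAND1 and TBX2 (3 of 8, against 37.9%). Neither share was larger than that of all genes. The histone share was lower in Kelly than in any BE2C library (given above), and its part in these differences was not tested. The balance of the HAND pair, given as levels per kilobase, differed between the lines. HAND2 was at 3.98 times the level of HAND1 in Kelly, at 0.594 times in parental cells and at 0.990 to 1.05 times in the 4 modified libraries. GATA2 exceeded GATA3 in every library, by 1.91-fold in parental cells, 2.76-fold in Kelly and 4.09-fold to 4.71-fold in the modified libraries. With median in place of longest transcript lengths these ratios of levels per kilobase were all larger for GATA2 over GATA3 (2.90, 4.19 and 6.23 to 7.16) and for HAND2 over HAND1 (0.802 in parental cells, 5.38 in Kelly and 1.34 to 1.41 in the modified libraries).

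With the vector mean in place of the parental library as the BE2C reference, 3 members were at least 2-fold higher in Kelly, against 21.7% of 12495 genes, and 1 was lower, against 15.2%, and GATA3 turned from a log2 ratio of -0.65 to 1.21. GATA3 in Kelly lay between the modified and the parental libraries, so its direction depended on which BE2C libraries were taken. Kelly and the parental library both had low histone shares, unlike the vector libraries (given above). The part of this in the change of direction was not tested. TBX2 and HAND2 kept their direction and a difference of over 2-fold against the vector mean (5.85-fold lower and 3.17-fold higher). Among other adrenergic factors that reached 5 CPM on either side in Kelly or parental cells, 6 of 17 were at least 2-fold higher and 3 lower, with SOX11 (137 against 2.11 CPM) and SATB1, a chromatin organiser, highest and ZNF536, a zinc-finger repressor, among the lowest.

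The other lists were read for their 2 highest and 2 lowest ratios of Kelly to parental cells, whatever their size. Over 12387 genes the median absolute log2 ratio was 0.59. Among paralogues the homeobox genes PRRX2 (9.88 CPM in Kelly, 0.251 in parental cells) and LHX1 (8.76 and 0.251 CPM) had the highest ratios, and GATA4 (0.739 and 62.9 CPM) and TBX18 (1.48 and 39.2 CPM), relatives of GATA3 and TBX2, the lowest. Among cofactors these were ZFPM2, a GATA partner, and LMO2 (log2 ratios of 3.36 and 2.95), and ZFPM1, its relative, and CREBBP, an acetyltransferase (-1.87 and -0.64). Among noradrenergic genes TH, tyrosine hydroxylase, and MAOA, a catecholamine-degrading oxidase, were highest (6.64 and 6.29), and NPY and VIP, both neuropeptides, lowest (-4.17 and -3.43). Of the mesenchymal factors SOX9 (2.51) and MAFF (1.08) were highest, and TBX18 (-4.02) and SNAI2 (-3.29) lowest.

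Parental cells were next set against the vector libraries, which are the same line with the vector but also differ in histone share (given above). GATA3 was 3.65-fold higher in the parental library (267 against 73.2 ± 0.00622 CPM, interval 3.51 to 3.79) and TFAP2B was 2.80-fold higher (163 against 58.3 ± 1.54 CPM, interval 2.68 to 2.92). These were 2 of 8 members at least 2-fold higher, against 8.79% of 11727 genes, and 0 of 8 were lower, against 2.58%. GATA2 (549 against 329 CPM) and HAND1 (230.1 against 140.2 CPM) were 1.67-fold and 1.64-fold higher, and ISL1 was 1.64-fold lower (72.7 against 119 CPM). TBX2 was 1.22-fold lower (249 against 304 CPM). PHOX2A (139 against 138 CPM) and HAND2 (218 against 224 CPM) were nearly level. The parental library lay above all 4 modified libraries for 5 of 8 members, against 42.0% of genes, and below all 4 for ISL1, against 32.7%. The histone share of this library was far lower than that of the modified ones (given above), and its part in these differences was not tested. With 1 parental library, the vector and this difference in library content cannot be told apart. Without vector replicate 1 or 2 the counts of members past 2-fold were the same.

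**Figure D4:**
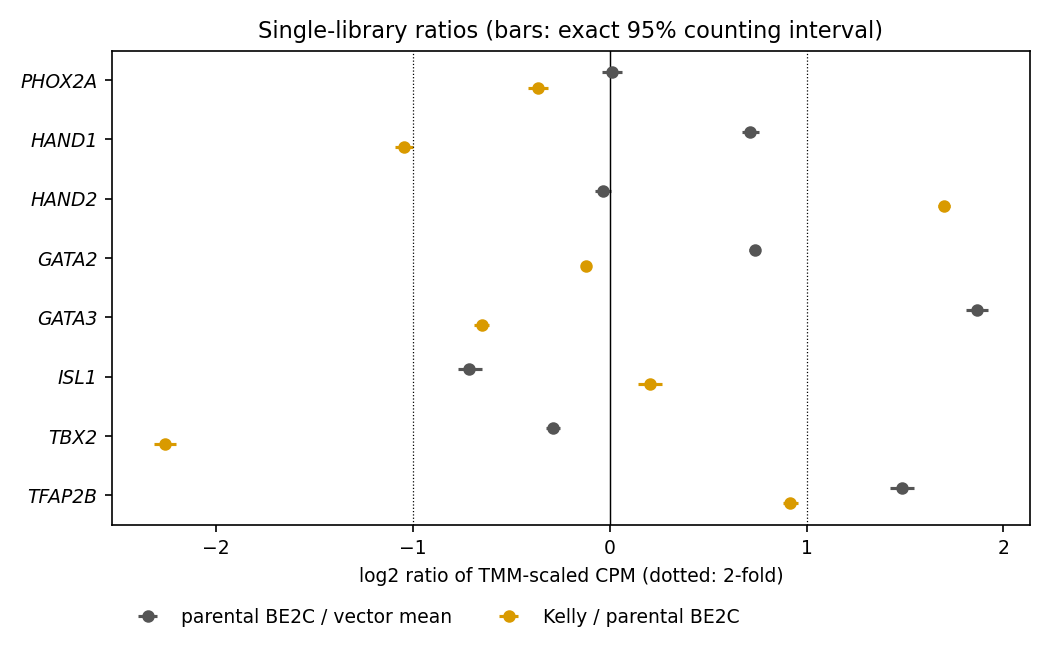
Log2 ratio of TMM-scaled CPM (x axis) for the 8 members (y axis), parental against the vector mean in grey and Kelly against parental in yellow, with exact 95% counting intervals as bars and dotted lines at 2-fold. GATA3 and TFAP2B lie past 2-fold in grey, and HAND2, TBX2 and HAND1 in yellow.

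The difference between the parental library and the vector mean was larger than that between LMO1 and vector for 5 of 8 members. The same held for 71.0% of genes tested. On the log2(CPM + 1) scale GATA3 differed by 1.85 between parental and vector and by -0.24 between LMO1 and vector, and both differences share the vector libraries. Against the parental library the LMO1 mean was 4.31-fold lower for GATA3, 1.93-fold lower for HAND1, 1.33-fold lower for TBX2 and 1.11-fold lower for HAND2. ISL1 was 1.97-fold higher with LMO1 than in parental cells. TFAP2B, which rose against vector, was 2.02-fold lower than in parental cells, so its direction depended on which BE2C control was used. The parental side is 1 library with a far lower histone share (given above). A difference between cells and one between libraries cannot be told apart here.

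The long non-coding RNAs next to GATA3 and HAND2 were also in the table. GATA3-AS1 was at 21.8 and 21.3 CPM with LMO1 and at 28.1 and 30.4 CPM with vector and fell by 0.43 (SE 0.091, edgeR adjusted p = 0.000175), in the same direction as GATA3. It was at 23.0 CPM in the parental library, within the range of the modified libraries, where GATA3 was at its highest. There were 11.6 GATA3 reads per GATA3-AS1 read in the parental library, 14.9 in Kelly and 2.41 to 2.91 in the modified libraries. HAND2-AS1 was at 59.9 and 55.5 CPM with LMO1 and at 52.3 and 53.4 CPM with vector (log2 fold change 0.13, SE 0.0647, edgeR adjusted p = 0.123), while HAND2 fell. In Kelly it was at 120.3 CPM against 88.4 CPM in parental cells. The strand setting of the counting is not given in the sources used here, so reads of overlapping antisense genes cannot be told apart.

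Chromosomal neighbours were read to see whether members moved with the genes around them. Of the 3 nearest tested genes on each side of the 8 members, 48 in all, 11 (22.9%) were higher and 7 (14.6%) lower with LMO1, against 15.9% and 15.1% of all genes tested. Around ISL1, 4 of the 5 neighbours reported here were called higher. ITGA2, an integrin subunit, rose from 3.38 to 13.4 CPM, a log2 fold change of 1.999 (SE 0.167, edgeR adjusted p = 8.31e-14). ITGA1, another integrin subunit, rose by 0.42 (SE 0.0455, edgeR adjusted p = 1.44e-10). The calls of PARP8 and PELO, named after their values were seen, were not stable (highest edgeR adjusted p of 0.0644 and 0.397 on leaving out 1 library). Next to TFAP2B, PKHD1 rose from 28.9 to 76.9 CPM (log2 fold change 1.42, SE 0.0684, edgeR adjusted p = 2.87e-22).

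Around TBX2, 1 of 6 neighbours was called. PPM1D, a phosphatase gene, had a log2 fold change of -0.21 (SE 0.0749, edgeR adjusted p = 0.0253, 0.00729 to 0.197 over the alternatives), and the other 5 were not called. They included the paralogue TBX4, at mean levels under 1 CPM in both groups (log2 fold change -1.26, SE 0.625, edgeR adjusted p = 0.125). In Kelly the adjacent gene BCAS3 had a log2 ratio of 1.88 to parental cells, where TBX2 had -2.24. Both TBX4 and BCAS3 were chosen after their values were seen. Around GATA3, SFMBT2 rose by 0.72 (SE 0.0659, edgeR adjusted p = 1.22e-12) and GATA3-AS1 fell, as given above.

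**Figure D5:**
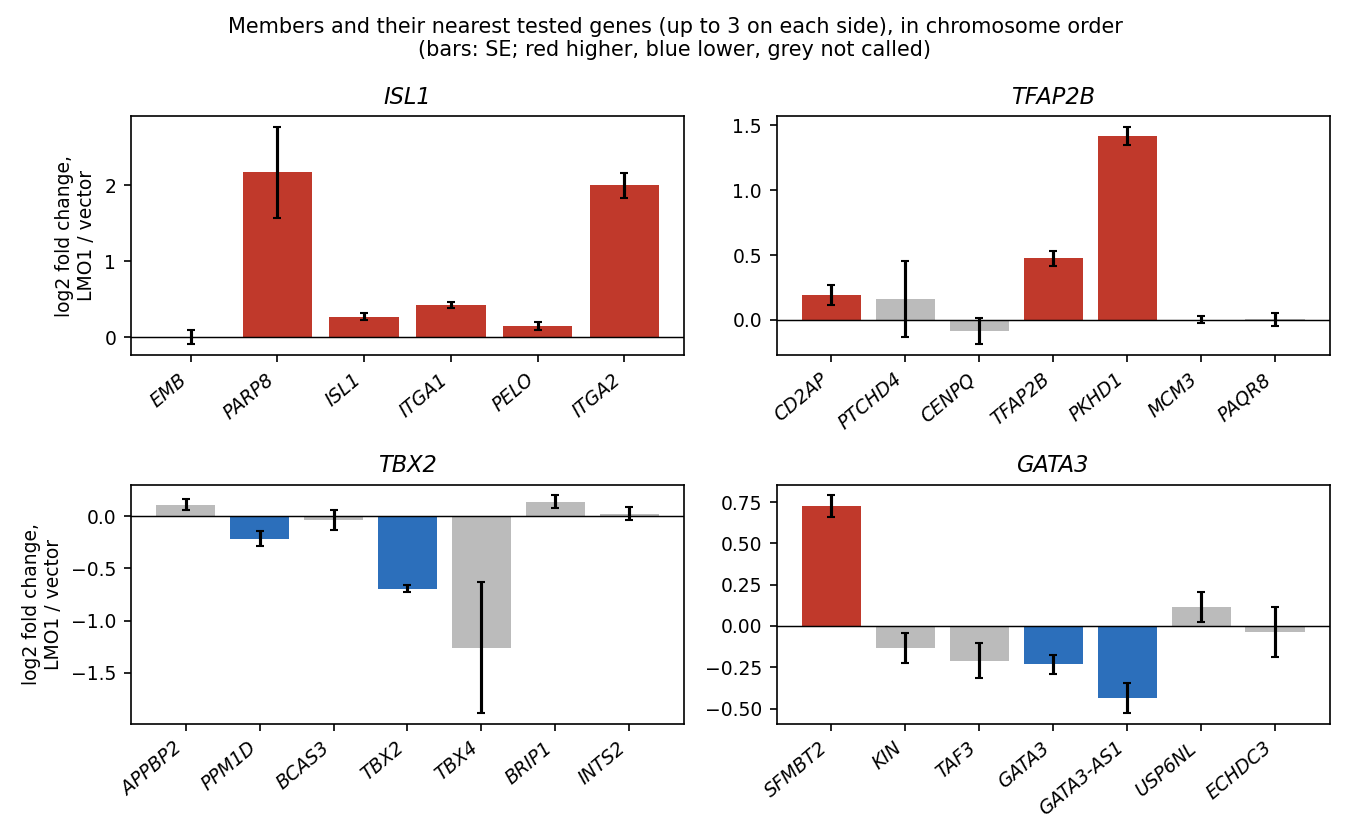
Log2 fold change of LMO1 against vector (y axis, bars are SE, scales differ between panels) for ISL1, TFAP2B, TBX2 and GATA3, each with its nearest tested genes, up to 3 on either side, in chromosome order (x axis). Around ISL1, 4 of the 5 neighbours shown are red (called higher), and around TBX2 1 of 6 is blue (called lower).

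The pattern of each factor over the 6 libraries was last compared with 6172 or 6173 genes that varied by at least 1 on the log2(CPM + 1) scale. TBX2 was most like DOK4 (Pearson's r 0.9999) and GPATCH4 (0.9992), GATA3 most like VPS26A (0.9997) and ATP2A2 (0.9990), and HAND2 most like COG6 (0.9993) and WDR48 (0.9989). GATA2 was most like CNOT6 (0.9992) and FAM122B (0.9990), and TFAP2B most like MAGI2-AS3 and RNF208 (0.9989 each). For ISL1 these were LOC100630918 (0.9987) and NME1 (0.9882), for HAND1 SLC12A7 (0.9968) and WDR4 (0.9953), and for PHOX2A ZNF814 (0.9927) and SAMD15 (0.9912). The number of genes with r over 0.99 ran from 1 for ISL1 to 217 for HAND2. These values describe 6 points, 4 of which are modified BE2C libraries made from the same line.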

How the data were processed

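The deposited table holds raw read counts per gene symbol for 6 libraries, and all 6 columns were used. Per the submitters' processing notes, TopHat2 2.0.6, HTSeq and the hg19 build were used by the authors, and per the labels' protocols libraries were made with a stranded total RNA kit, paired-end. The annotation and strand setting are not given in the sources used here. For LMO1 against vector (2 libraries each), edgeR 4.0.16 was run under R 4.3.3 (TMM scaling, filterByExpr, quasi-likelihood test, Benjamini-Hochberg adjustment over 15480 of 25370 genes, threshold 0.05), with no block for replicate number. The script was tested on simulated data. The common biological coefficient of variation was 3.60%. SE is the log2 fold change divided by the root of the F statistic. Parental and Kelly libraries (1 each) were described by log2 ratios of TMM-scaled CPM with a pseudocount of 1, for genes at 5 CPM or more on either side. Exact 95% intervals cover counting error only, as does the floor of 3 counts. Total counts per library were 18737591 and 22426978 (LMO1), 21946052 and 25070942 (vector), 48663459 (parental) and 59512958 (Kelly). Scaling by TMM in place of totals moved the median log2 ratio by -0.03 (Kelly against parental) and by 0.02 (parental against vector).

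The members and gene lists were chosen with earlier results of these data known. Named genes were all members, LMO1 and MYCN, up to 4 called genes per list with the lowest adjusted p, the 2 highest and 2 lowest Kelly ratios per list, up to 2 called neighbours per member among the 3 nearest tested genes on each side, and the 2 most correlated genes per member. Exceptions are stated, apart from PRRX1, STMN2, STMN4 and the markers of other cell types, which were picked after their values were seen. For marker lists the Kelly extremes are not all given. Alternatives covered scaling, low-count filters, DESeq2 1.42.0, limma-voom (limma 3.58.1), all 6 libraries in one fit, the replicate block, each library left out, pseudocount, control library and transcript length. One listed transcription factor and one neighbouring gene are counted in the fits but not reported here.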

Additional observations from a re-analysis of the deposited data

How the results depend on the processing

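For LMO1 against vector, all 6 called members kept their direction and call under each of the 12 alternatives run, and PHOX2A and GATA2 were not called under any. The counts of 2 higher and 4 lower members were the same with the replicate block, which gave 2473 higher and 2374 lower genes in all against 2463 and 2334 without it. Deviations of same-numbered libraries had a correlation of -0.02. A weak shared effect could give such a value too, so it cannot show whether same-numbered libraries were handled together. Over all genes, leaving out 1 library left 1772 to 1914 higher and 1670 to 1745 lower, and DESeq2 called 1750 and 1796.

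Some list counts moved, and the cause was not tested. Other adrenergic factors called higher, 6 in the main analysis, were 3 without a low-count filter, 3 with DESeq2 and 2 to 5 on leaving out 1 library. Paralogues called higher, 2 before, were 0 at a filter of 5 CPM, which leaves fewer genes tested, and 1 to 2 on leaving out 1 library. Noradrenergic targets called lower, 2 before, were 1 to 2 on leaving out 1 library. Mesenchymal factors called higher, 2 before, were 1 at 5 CPM, 1 with DESeq2 and 1 to 2 on leaving out 1 library. Taking the vector mean in place of the parental library moved Kelly's counts of members past 2-fold from 1 higher and 2 lower to 3 and 1, and GATA3 from -0.65 to 1.21. With 2 libraries a group and single parental and Kelly libraries, culture-to-culture variation is not measured.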
